A study of Rattus norvegicus with 23 samples.

Results

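The left ventricle (LV) was compared with the right ventricle (RV) in the rat heart, on all genes that the arrays measured above background and then by functional group. The comparison takes 7 of the 23 arrays of the series, 4 of LV (LV1 to LV4) and 3 of RV (RV1 to RV3), chosen by the region in their labels. It takes 12445 of the 16544 named genes, those that the scanner software marked as well above background on every array of LV or on every array of RV. The study hybridized RNA from 6 regions of the heart and great vessels of male Wistar rats aged 8 to 11 weeks to single-color Agilent arrays. Besides the ventricles these were the left atrium (LA), the sinoatrial node (SA), the pulmonary vein (PV) and the pulmonary artery (PA). The study used 12 rats, and its methods state that an LV sample was a piece of the muscle mass of the LV and an RV sample came from the free wall, after heparinized perfusion and trimming of fat and nerve. All groups share strain, sex and age range, SA tissue was isolated separately from the rest, and the labels name no allele and no treatment. The labels do not say which arrays came from the same rat. Pieces of 1 LV were used as separate samples, so the p-values below measure the spread between arrays, which may in part be technical. A level is the log2 of the normalized signal plus 1, taken from the brightest probe of a gene on each array, and a difference of 1 is a doubling of that signal.

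The LV pumps against systemic pressure and the RV against the much lower pressure of the lung circulation, so the LV wall is thicker. The chambers also differ in origin, since the LV forms largely from the early heart tube and the RV largely from progenitors added to it later, and these fields use partly different transcription factors. Stretch and load act on the myocyte through the Z-disc and titin, and natriuretic peptides, ankyrin repeat proteins of the sarcomere and calcineurin targets are the usual readouts of such load. Repolarization also differs across the ventricles, with a transient outward potassium current that varies with the site.

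On the 7 arrays, between 58.7% (LV4) and 78.2% (RV1) of the probes passed the background flag of the scanner software, and none was saturated. The arrays were on 3 slides, of which slide 2 held LV3, RV1 and RV2 and slide 3 held LV1, LV2 and RV3, while LV4 was the sole ventricular array of slide 1. All 10 ventricular myocyte markers were tested, and none passed the test: *Myl2*, the ventricular regulatory light chain, lay at 18.92 to 19.22 in LV and 18.76 to 19.08 in RV, and *Irx4*, a ventricular transcription factor, at 12.32 to 12.62 and 12.21 to 12.37. RV2 stood apart from the other arrays. Its level of *Mybphl*, an atrial myosin-binding protein, was 9.09 against 5.91 to 6.65 on the others, and its level of *Sln*, sarcolipin, the atrial inhibitor of the calcium pump, was 10.66 against 6.44 to 8.91. *Adipoq*, the adipocyte hormone adiponectin, was at 7.79 in RV2 and at 3.02 to 4.97 elsewhere. Counts that rest on RV2 are given with and without it.

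Of the 12445 genes, 138 (1.11%) had an adjusted p below 0.05 for LV against RV. The fit was made with limma on all 23 arrays, so that every region adds to the estimated spread, and p was adjusted over all genes tested. Of these, 76 (0.611% of the genes tested) were higher in LV and 62 (0.498%) were higher in RV, and such genes are called higher below. Most differences were small: 22 genes in each direction differed at least 2-fold, 8 in LV and 6 in RV at least 4-fold, and the median fold was 1.62 in LV and 1.65 in RV. The difference had the same sign within slide 2 and within slide 3 for all 138 genes. That sign is fixed in advance for any gene whose LV and RV arrays do not overlap. The LV and RV arrays did not overlap for 75 of the 76 genes and 60 of the 62. Of all genes tested 12.7% did not overlap, 6.16% with LV higher and 6.5% with RV higher. Without RV2 the test made 50 calls, 28 higher in LV and 22 higher in RV, of which 48 were among the 138. It made 49 without RV1, 75 without LV2 and 78 without LV3. With slide as a block the fit called 158 genes, 109 of them among the 138, and a fit of the 7 ventricular arrays alone called 18, of which 16 were shared. RV2 was the highest of the 3 RV arrays for 20 of the 62 genes called higher in RV, about the share of any 1 of 3 arrays that rank alike. At an unadjusted p below 0.05 were 1662 genes (13.4%), of which 768 genes (6.17%) lay on the LV side and 894 (7.18%) on the RV side, and these shares are the background for the unadjusted counts given for groups below. The median difference over all genes tested was 0.00.

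**Figure D1:**
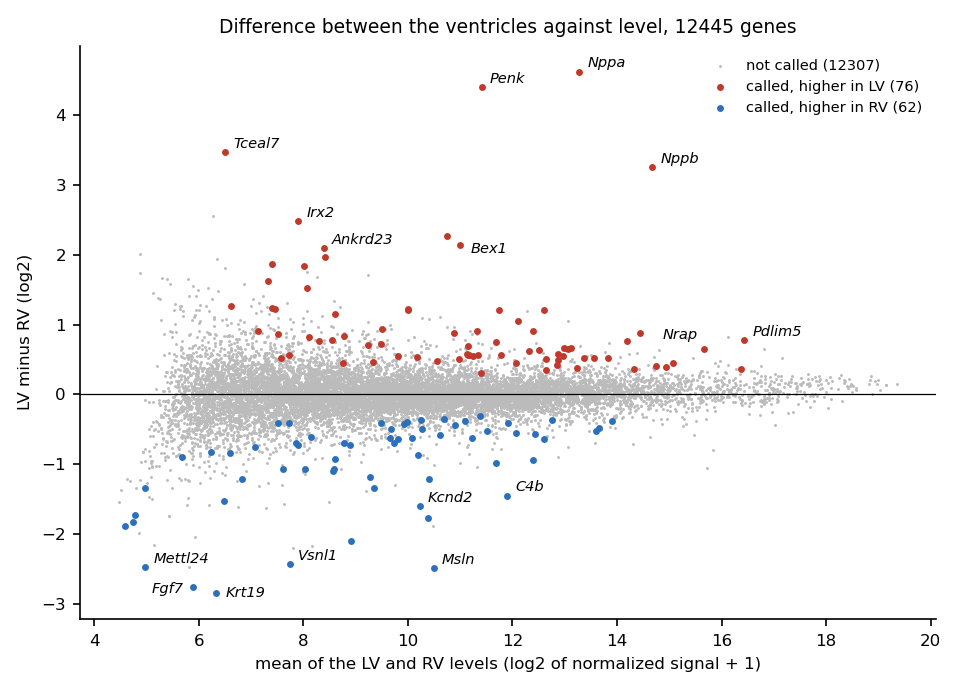
Each point is 1 of the 12445 genes tested; the horizontal axis is the mean of the LV and RV levels (log2 of normalized signal plus 1) and the vertical axis is LV minus RV on the log2 scale, with called genes in color. The 138 called genes lie at levels up to that of *Pdlim5*, and of these *Nppa* and *Penk* lie farthest above 0, followed by *Tceal7* and *Nppb*.

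The natriuretic peptide genes were among the largest differences. *Nppa*, which encodes atrial natriuretic peptide, had levels of 16.23, 15.29, 14.55 and 16.26 in LV1 to LV4 and 10.70, 11.80 and 10.38 in RV1 to RV3. Every LV array was above every RV array, the difference was 4.62 ± 0.72 (log2, SE), or 24.7-fold (adjusted p = 0.00214), and it was 3.30 within slide 2 and 5.38 within slide 3. *Nppb*, which encodes brain natriuretic peptide and lies next to *Nppa* on the chromosome, had levels of 16.47, 15.88, 17.01 and 15.82 in LV and 13.29, 12.87 and 12.96 in RV. It too was separate on all arrays, with a difference of 3.25 ± 0.72 (adjusted p = 0.0332), 3.93 within slide 2 and 3.22 within slide 3, but with slide as a block the adjusted p was 0.0511. Its SD was 0.56 in LV and 0.22 in RV, against 1.29 in LA, 1.04 in PV and 1.57 in PA, which enter the same fit. The call was kept only without LV4 (otherwise adjusted p = 0.0588 to 0.121), and in a fit of the 7 ventricular arrays alone the adjusted p was 0.0149. The call of *Nppa* held without any 1 array. The receptors did not pass the test: the difference was 0.22 for *Npr1* (adjusted p = 0.498), the guanylyl cyclase receptor of both peptides, -0.27 for *Npr2* (adjusted p = 0.208), the receptor of C-type natriuretic peptide, and -0.42 for *Npr3* (adjusted p = 0.484), the clearance receptor. Of the 11 members of the natriuretic peptide system that were tested, the other 9 were not called, and the median of the list was 0.04.

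The promoters of 5 of the called genes are shown because the genes were among the largest differences described here, the first 3 higher in LV and the last 2 higher in RV. Each is the 250 bases before the annotated start, from RefSeq on build GRCr8, read 5′ to 3′ on the strand of the gene: *Nppa* at chr5:163711934-163712183 on the plus strand, *Nppb* at chr5:163699758-163700007 on the plus strand, *Ankrd23* at chr9:46274511-46274760 on the minus strand, *Kcnd2* at chr4:50742235-50742484 on the plus strand and *Vsnl1* at chr6:39878557-39878806 on the minus strand. Capitals mark matches, on either strand, to 5 motifs that do not overlap each other: TATAAA, a core promoter box, AGATAA as well as TGATAA, which Gata factors bind, CATTCC, which Tead factors bind, and AGGTGT, which Tbx factors bind.
Nppa: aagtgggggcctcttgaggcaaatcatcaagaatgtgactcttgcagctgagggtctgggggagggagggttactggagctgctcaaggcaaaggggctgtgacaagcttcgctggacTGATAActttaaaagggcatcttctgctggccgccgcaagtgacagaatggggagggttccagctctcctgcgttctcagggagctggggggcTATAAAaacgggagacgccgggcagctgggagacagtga
Nppb: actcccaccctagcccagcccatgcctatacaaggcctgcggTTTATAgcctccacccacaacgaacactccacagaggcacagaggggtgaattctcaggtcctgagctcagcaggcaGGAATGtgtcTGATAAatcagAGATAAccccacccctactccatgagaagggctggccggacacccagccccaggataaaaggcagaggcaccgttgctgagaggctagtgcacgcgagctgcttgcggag
Ankrd23: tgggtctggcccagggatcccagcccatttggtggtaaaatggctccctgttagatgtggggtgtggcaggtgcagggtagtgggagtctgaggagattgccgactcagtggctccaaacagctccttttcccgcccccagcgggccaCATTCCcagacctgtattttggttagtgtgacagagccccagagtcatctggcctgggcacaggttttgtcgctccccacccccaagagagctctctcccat
Kcnd2: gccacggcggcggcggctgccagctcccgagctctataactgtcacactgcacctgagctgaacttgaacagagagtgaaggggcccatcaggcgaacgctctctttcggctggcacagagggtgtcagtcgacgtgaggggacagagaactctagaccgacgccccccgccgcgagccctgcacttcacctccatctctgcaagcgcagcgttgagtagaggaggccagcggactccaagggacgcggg
Vsnl1: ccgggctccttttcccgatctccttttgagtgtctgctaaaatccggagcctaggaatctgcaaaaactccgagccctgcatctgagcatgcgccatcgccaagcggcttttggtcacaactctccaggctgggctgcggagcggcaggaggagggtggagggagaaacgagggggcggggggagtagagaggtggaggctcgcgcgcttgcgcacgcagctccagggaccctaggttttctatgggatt

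The *Nppa* window held TATAAA at 39 to 34 bases before the start and TGATAA at 132 to 127 bases before it. The *Nppb* window held AGATAA at 110 to 105 bases and TGATAA at 121 to 116 bases before the start on its own strand, and CATTCC at 131 to 126 and TATAAA at 208 to 203 bases on the opposite strand. The *Ankrd23* window held CATTCC at 102 to 97 bases, and these letters were not in the windows of *Kcnd2* and *Vsnl1*. Of the 27457 promoters of the same length in the table, 13.1% held TATAAA, 10.0% AGATAA, 7.87% TGATAA, 11.8% CATTCC and 11.4% AGGTGT. Over the 10196 promoters of genes tested the shares were lower, 8.9%, 6.92%, 4.68%, 10.5% and 9.7%. A promoter was listed for 105 of the 138 called genes. CATTCC was in 6 of 57 (10.5%) of genes higher in LV and in 9 of 48 (18.8%) of genes higher in RV, while TATAAA was in 8 of 57 (14.0%) and 5 of 48 (10.4%). For AGATAA the counts were 3 (5.26%) and 6 (12.5%), for TGATAA they were 4 (7.02%) and 0, and for AGGTGT they were 7 (12.3%) and 9 (18.8%), in the same order. A match describes the letters of the window and was not tested as a binding site.

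**Figure D2:**
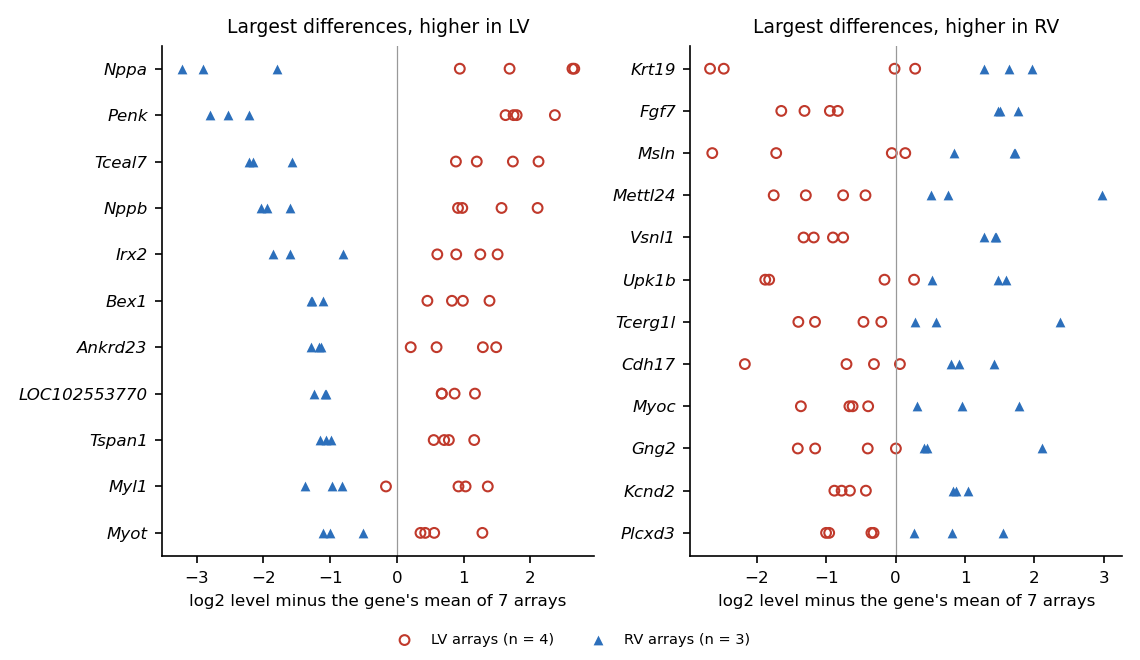
For called genes with the largest differences, 11 higher in LV and 12 higher in RV, each symbol is 1 array; the horizontal axis is the log2 level minus the mean of the gene over the 7 arrays, circles are LV (n = 4) and triangles RV (n = 3). No circle overlaps the triangles of its gene, and RV2 is the triangle far to the right for *Mettl24*, *Tcerg1l* and *Gng2*.

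Genes of the wall stress response were the functional group with the highest median toward LV. Of the 20 members tested, 3 were called higher in LV and none higher in RV, 10 (50%) had an unadjusted p below 0.05 on the LV side and 1 on the RV side, and the median difference was 0.38. The median stayed between 0.33 and 0.41 when any 1 array was left out. The called members were *Nppb*, *Ankrd23* and *Rcan1*. *Ankrd23*, an ankyrin repeat protein that binds titin, had levels of 9.83, 9.14, 8.75 and 10.03 in LV and 7.40, 7.26 and 7.38 in RV, a difference of 2.09 ± 0.32 (adjusted p = 0.00203), with 1.42 within slide 2 and 2.11 within slide 3. *Rcan1*, an inhibitor of calcineurin that calcineurin itself induces, had levels of 15.09, 14.82, 14.92 and 14.66 in LV and 13.91, 14.13 and 13.92 in RV, a difference of 0.89 ± 0.15 (adjusted p = 0.00556). Both sets of arrays were separate, and both genes kept their calls without any 1 array. Other members lay on the LV side without passing the test: the difference was 0.83 for *Ankrd1* (adjusted p = 0.285), the paralogue that responds to stretch, 0.77 for *Xirp2* (adjusted p = 0.23), an actin-binding protein of the intercalated disc, and 0.86 for *Ankrd2* (adjusted p = 0.264). *Acta1*, skeletal alpha-actin of the fetal program, differed by -0.36 (adjusted p = 0.642) and *Postn*, periostin of activated fibroblasts, by -0.83 (adjusted p = 0.246).

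At the Z-disc, 3 of 21 members tested were higher in LV and none higher in RV, with a median of 0.16 (0.09 without LV1). *Myot*, myotilin, which crosslinks actin at the Z-disc, had levels of 8.73, 9.45, 8.53 and 8.60 in LV and 7.17, 7.66 and 7.06 in RV, a difference of 1.53 ± 0.26 (adjusted p = 0.00438) that held without any 1 array. *Pdlim5*, a Z-disc scaffold for protein kinases, had levels of 16.78, 16.73, 16.85 and 16.91 in LV and 16.28, 15.98 and 15.88 in RV, a difference of 0.77 ± 0.12 (adjusted p = 0.0019), also held without any 1 array. With the probe of the highest ventricular mean used in all regions, both differences were the same but the adjusted p was 0.131 for *Myot* and 0.0689 for *Pdlim5*. *Nrap*, a nebulin-related anchoring protein of the intercalated disc, was at 15.95 to 16.05 in LV and 15.25 to 15.43 in RV, a difference of 0.64 ± 0.11 (adjusted p = 0.00668), and its call was lost without RV2 (adjusted p = 0.0556). *Sorbs2*, an adaptor of the Z-disc and intercalated disc that is not on the list and was named after its values were seen, was at 12.41 to 12.71 and 11.89 to 12.18, a difference of 0.62 ± 0.11 (adjusted p = 0.00679), lost without RV1 (adjusted p = 0.05005). *Tcap*, the titin cap, differed by 0.17 (adjusted p = 0.756). The filaments themselves differed little. Of 27 sarcomere genes tested, 2 were called, both isoforms of other muscle: *Myl1*, the essential light chain of fast skeletal muscle, was at 9.51, 9.18, 7.98 and 9.07 in LV and 6.78, 7.33 and 7.18 in RV (1.84 ± 0.38, adjusted p = 0.0227), and *Tnnt1*, troponin T of slow skeletal muscle, at 11.13, 10.54, 10.44 and 10.30 and 9.61, 9.25 and 9.30 (1.21 ± 0.29, adjusted p = 0.0438). Neither call was firm: that of *Myl1* was kept only without LV3 or LV4 (otherwise adjusted p = 0.0525 to 0.108), and that of *Tnnt1* was kept only without LV4 (otherwise adjusted p = 0.0783 to 0.154). The main cardiac isoforms did not pass the test, with differences of 0.14 for *Myh6*, 0.06 for *Myh7*, 0.21 for *Myl2*, 0.13 for *Myl3* and 0.09 for *Tnni3* (adjusted p = 0.863 to 0.966). The 95% interval was -0.35 to 0.63 for *Myh6* and -0.43 to 0.56 for *Myh7*.

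Among cardiac transcription factors, 3 of 34 tested were higher in LV and none higher in RV, with a median of 0.03. *Irx2*, an Iroquois homeodomain factor, had levels of 9.59, 9.33, 8.97 and 8.68 in LV and 7.27, 6.22 and 6.48 in RV, and its difference was 2.48 ± 0.44 (adjusted p = 0.00679). That call was lost without RV2 (adjusted p = 0.0574), and the difference was 2.22 within slide 2 and 2.98 within slide 3. *Irx5*, of the same family, was at 12.32, 11.74, 11.26 and 11.76 in LV and 10.77, 10.98 and 10.83 in RV (0.91 ± 0.20, adjusted p = 0.028), and its call was kept only without LV3 (otherwise adjusted p = 0.0517 to 0.112). *Hopx*, a homeodomain protein that does not bind DNA and restrains serum response factor, was at 12.68, 12.21, 11.99 and 12.48 in LV and 11.08, 10.94 and 11.37 in RV (1.22 ± 0.17, adjusted p = 7.10e-04), with a call that held without any 1 array. Another *Hopx* probe showed a difference of -0.19. The factors known for chamber identity in the embryo did not pass the test. *Hand1*, a factor of the early LV, lay at 6.54 to 7.78 in LV and 6.31 to 7.59 in RV (0.16, adjusted p = 0.902), and *Hand2*, a factor of the embryonic RV, at 9.06 to 10.08 and 9.42 to 9.72 (-0.00053, adjusted p = 0.9996). *Tbx5*, another factor of the early LV, differed by -0.32 (adjusted p = 0.774), *Tbx20* by 0.22 (adjusted p = 0.832), *Irx4* by 0.13 (adjusted p = 0.921) and *Hey2*, a repressor of the compact ventricular wall, by -0.41 (adjusted p = 0.566). The 95% intervals were -0.58 to 0.89 for *Hand1*, -0.41 to 0.41 for *Hand2* and -1.05 to 0.41 for *Tbx5*, and differences within them were not detectable on 7 arrays. The signs for *Hand1*, *Hand2*, *Tbx5*, *Tbx20* and *Myh7* changed under some of the other settings.

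**Figure D3:**
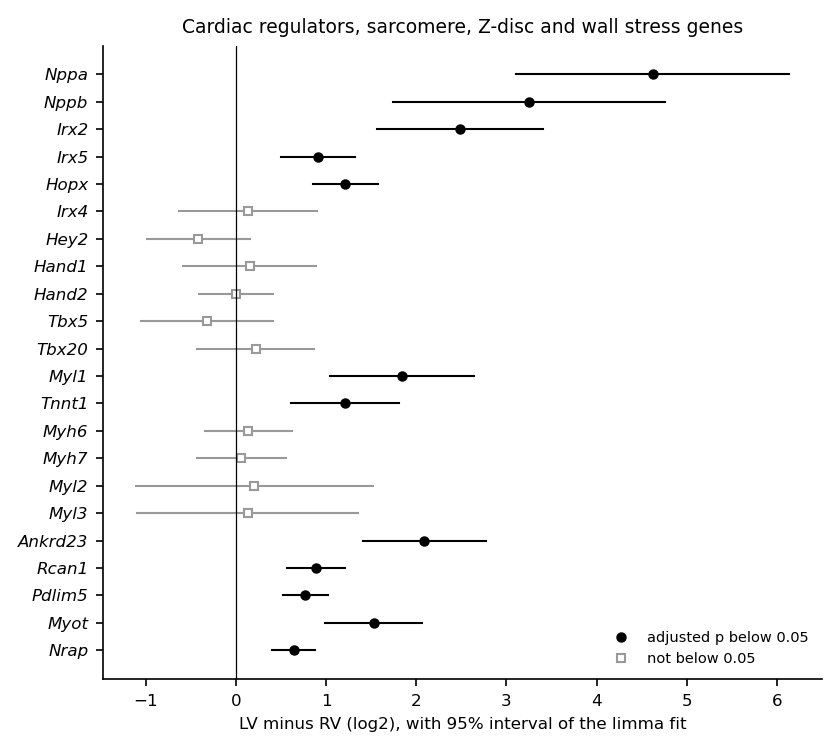
Points are LV minus RV (log2) of cardiac transcription factors and of sarcomere, Z-disc and wall stress genes, with the 95% interval of the limma fit; filled points have an adjusted p below 0.05. *Nppa*, *Nppb* and *Irx2* lie farthest to the right, and the intervals of *Hand1*, *Hand2*, *Tbx5*, *Myh6* and *Myh7* include 0.

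*Penk*, the precursor of the enkephalin opioid peptides, was the second largest difference after *Nppa*. Its levels were 13.47, 13.52, 13.35 and 14.09 in LV1 to LV4 and 9.19, 9.50 and 8.92 in RV1 to RV3. The arrays were separate by more than the spread within either ventricle, the difference was 4.40 ± 0.28 (21.1-fold, adjusted p = 2.34e-08), 4.003 within slide 2 and 4.57 within slide 3, and the call held without any 1 array. A dimmer second probe for *Penk* showed a difference of -0.17, with 4 LV and 2 RV arrays above background, so the probes disagree. No other member of the 23 neuropeptide and receptor genes tested was called, *Adm*, adrenomedullin, being at 0.54 (adjusted p = 0.19). The median of the list was 0.18, and -0.04 without RV2.

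The lists of potassium channels, calcium handling, connexins and conduction each had 1 called gene, higher in RV, and medians between -0.08 and 0.07. Of 34 potassium channel genes tested, 1 was called, *Kcnd2*, a pore-forming subunit of the transient outward current, and 6 had an unadjusted p below 0.05 on the RV side against 1 on the LV side. *Kcnd2* was at 9.23, 9.45, 9.68 and 9.33 in LV and 11.15, 10.93 and 10.99 in RV. All RV arrays were above all LV arrays, RV was higher by 1.6 ± 0.22 (3.03-fold, adjusted p = 5.49e-04), 1.36 within slide 2 and 1.65 within slide 3, and the call held without any 1 array. Its relatives in the same current did not pass: LV minus RV was -0.87 for *Kcnd3*, the other main pore subunit (adjusted p = 0.0865), and -0.17 for *Kcnip2*, their auxiliary subunit (adjusted p = 0.834). Further channels with an unadjusted p below 0.05 were *Kcnj3*, the acetylcholine-gated channel (-0.87, adjusted p = 0.0573), *Kcnk2*, a stretch-sensitive background channel (-1.04, adjusted p = 0.139), and on the LV side *Kcne1*, a subunit of the slow delayed rectifier (1.33, adjusted p = 0.0864). Of 34 calcium handling genes, *Cacna2d1*, the auxiliary subunit of the L-type calcium channel, was called, at 13.37, 13.28, 13.31 and 13.41 in LV and 13.98, 13.81 and 13.80 in RV, higher in RV by 0.52 ± 0.09 (adjusted p = 0.00556). The call was lost without RV1 (adjusted p = 0.05005). The core of calcium cycling differed by less than its spread, by -0.04 for *Atp2a2*, the calcium pump of the sarcoplasmic reticulum, 0.07 for *Ryr2*, its release channel, and 0.15 for *Pln*, phospholamban (adjusted p = 0.798 to 0.909).

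*Gja3*, which encodes a connexin best known from the lens, was the 1 called gene of the 22 connexin and intercalated disc genes, at 8.23, 8.002, 7.99 and 7.97 in LV and 9.35, 9.28 and 8.73 in RV, higher in RV by 1.07 ± 0.21 (adjusted p = 0.0132). This call was lost without RV1 or RV2 (adjusted p = 0.0868 to 0.0886). On its list 3 genes had an unadjusted p below 0.05 on the LV side and 2 on the RV side. The working-muscle connexin *Gja1* differed by -0.11 (adjusted p = 0.851), the conduction connexin *Gja5* by 0.25 (adjusted p = 0.677) and *Ctnnb1*, beta-catenin of the disc, by 0.48 (adjusted p = 0.097). Of 17 conduction system and Purkinje fibre genes, *Igfbp5*, a binding protein of insulin-like growth factors found in those fibres, was called, at 7.10, 6.71, 7.19 and 7.31 in LV and 8.28, 8.13 and 8.02 in RV (1.07 ± 0.23 higher in RV, adjusted p = 0.0275), and its call was kept only without LV4 (otherwise adjusted p = 0.0518 to 0.118). None of the 24 sodium and chloride channels, pumps and exchangers passed, with a median of 0.19 (0.12 without RV1). Of them 5 had an unadjusted p below 0.05 on the LV side (3 without RV1 and 3 without RV2) and 2 on the RV side. *Scn3b*, an auxiliary sodium channel subunit, differed by 1.2 (adjusted p = 0.0691). Receptors showed little difference. None of 27 autonomic receptor genes passed, *Gnao1*, a G protein subunit on that list, coming closest (0.57, adjusted p = 0.0646), and *Chrm2*, the cardiac muscarinic receptor, was at -0.44 (adjusted p = 0.189). None of 17 angiotensin, endothelin and aldosterone genes passed. Of them 4 had an unadjusted p below 0.05, all on the RV side (2 without LV1, 2 without RV1 and 2 without RV2), with *Ece2*, an endothelin-converting enzyme, having the lowest p (-0.34, adjusted p = 0.23).

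No gene of energy metabolism was called higher in LV, while the unadjusted counts of several lists lay on the LV side. Of 74 genes of electron transport and ATP synthase, none was called, while 18 had an unadjusted p below 0.05 on the LV side and none on the RV side, and the median was 0.13. That count was 11 without LV3 and 9 without RV2, and the median without RV2 was 0.07. *Ndufb4*, a subunit of complex I, was at 17.81, 17.64, 17.84 and 17.93 in LV and 17.47, 17.42 and 17.66 in RV (0.29, adjusted p = 0.0691), and *Ndufa12*, of the same complex, at 16.91 to 17.004 and 16.61 to 16.74 (0.27, adjusted p = 0.108). *Atp5f1b*, the catalytic subunit of ATP synthase, differed by 0.42 (adjusted p = 0.13). For *Ndufb4* RV3 lay within the range of LV, and for *Ndufa12* the ventricles did not overlap. Of 36 genes of the citric acid cycle, ketone and creatine metabolism, none passed. There were 7 with an unadjusted p below 0.05 on the LV side (3 without LV1, 4 without LV3 and 3 without RV2) and 2 on the RV side. *Ogdh*, the oxoglutarate dehydrogenase, was at 0.36 (adjusted p = 0.0835) and *Cs*, citrate synthase, at 0.29 (adjusted p = 0.107). Of 47 genes of fatty acid uptake and oxidation, none passed, and *Pnpla2*, the lipase that opens fat stores, was at 0.69 (adjusted p = 0.0556) and *Cd36*, the fatty acid translocase, at 0.47 (adjusted p = 0.17). Of 42 glycolysis and glycogen genes, *Phkg1*, the catalytic subunit of muscle phosphorylase kinase, was called, at 7.44, 7.91, 7.48 and 7.26 in LV and 8.29, 8.32 and 8.15 in RV (0.73 ± 0.17 higher in RV, adjusted p = 0.0422), and its call was kept only without LV2 (otherwise adjusted p = 0.0708 to 0.149) and lost with slide as a block.

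Antioxidant and detoxification genes showed a like pattern. None of the 36 tested was called, 12 (33.3%) had an unadjusted p below 0.05 on the LV side and none on the RV side, and the median was 0.22, between 0.16 and 0.25 when any 1 array was left out. *Gstt2*, a glutathione transferase, was at 11.43, 11.70, 11.86 and 11.32 in LV and 11.005, 11.17 and 11.12 in RV (0.48, adjusted p = 0.0573), *Gstm1*, of another class of that family, differed by 0.38 (adjusted p = 0.0865), *Mgst1*, the microsomal transferase, by 0.72 (adjusted p = 0.142) and *Gpx1*, glutathione peroxidase, by 0.40 (adjusted p = 0.247). In the hypoxia response, 1 of 26 genes was called, *Bnip3*, a mitochondrial receptor for autophagy. It was at 14.49, 14.52, 14.67 and 14.59 in LV and 13.68, 13.88 and 13.84 in RV, higher in LV by 0.77 ± 0.13 (adjusted p = 0.0066), and the call was lost without RV1 (adjusted p = 0.05005). On that list 6 genes had an unadjusted p below 0.05 on the LV side and 1 on the RV side. *Stc1*, stanniocalcin, differed by 1.03 (adjusted p = 0.219) and *Ero1a*, an oxidase of the endoplasmic reticulum, by 0.30 (adjusted p = 0.134).

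**Figure D4:**
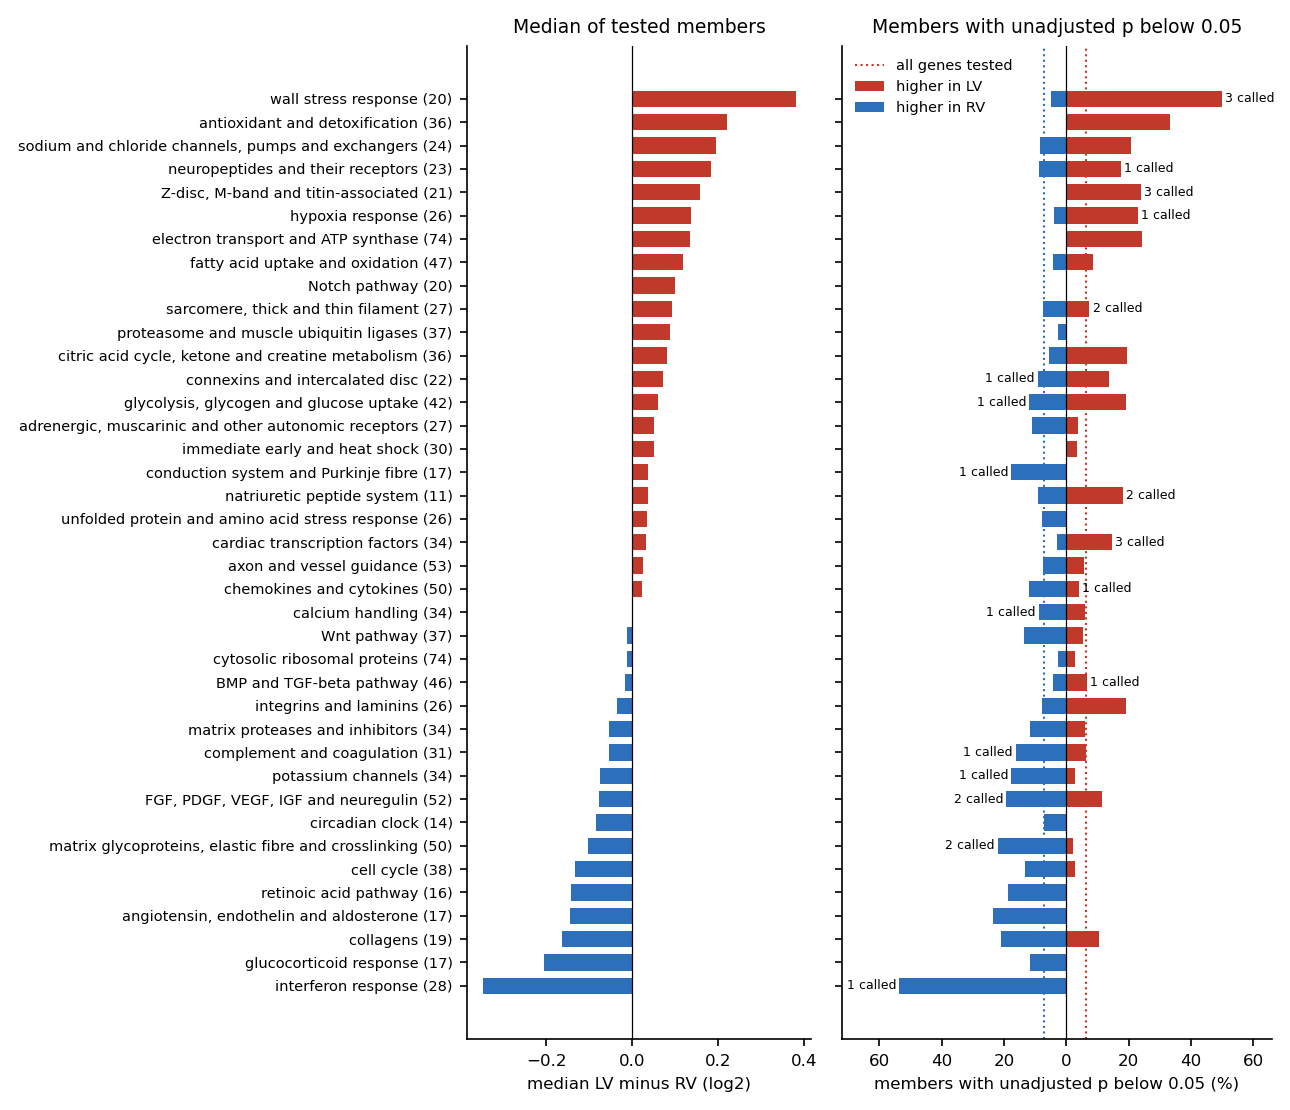
The left panel gives the median LV minus RV (log2) of the tested members of each of 39 functional lists, with their number in brackets, and the right panel the percentage of members with an unadjusted p below 0.05 on each side, with dotted lines at the shares over all genes tested and the number of called members written beside the bars. Wall stress genes have the highest median and interferon genes the lowest.

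The called genes on the matrix lists were both higher in RV, and both encode small proteoglycans. Of 50 matrix glycoprotein, elastic fibre and crosslinking genes, 2 were called higher in RV, and 11 had an unadjusted p below 0.05 on the RV side (7 without RV2) against 1 on the LV side. *Fmod*, fibromodulin, which binds collagen fibrils, was at 9.90, 9.83, 9.50 and 9.81 in LV and 10.38, 10.85 and 10.65 in RV (0.87 ± 0.16 higher in RV, adjusted p = 0.00865), and the call was lost without RV2 (adjusted p = 0.0718). *Ogn*, osteoglycin, of the same family of leucine-rich proteoglycans, was at 13.42, 13.36, 13.47 and 13.45 and 13.81, 13.83 and 14.06 (0.48 ± 0.09, adjusted p = 0.00865), lost without RV3 (adjusted p = 0.0525). Both were separate between the ventricles. *Ccn3*, a matricellular protein, differed by -1.02 (adjusted p = 0.0747) and *Thbs3*, a thrombospondin, by -0.48 (adjusted p = 0.0514). *Tgfbi*, an adhesion protein induced by TGF-beta and named after its values were seen, was called, at 11.63 to 11.93 in LV and 12.27 to 12.39 in RV (0.56 ± 0.13 higher in RV, adjusted p = 0.0402), a call kept only without LV1 or LV4 (otherwise adjusted p = 0.0937 to 0.136) and lost with slide as a block. No collagen of 19 passed: *Col1a1* was at 14.10, 14.35, 14.25 and 14.62 in LV and 14.82, 15.10 and 14.92 in RV (-0.62, adjusted p = 0.166) and *Col3a1* differed by -0.59 (adjusted p = 0.23). The median was -0.16, or -0.02 without RV2 and -0.37 without RV3. Of the 14 fibroblast markers 13 lay on the RV side and 1 on the LV side, none called, with a median of -0.33 (-0.21 without RV2) and a summed level (log2 of the summed signals) of 18.03 to 18.45 in LV and 18.39 to 18.59 in RV. Their part in the matrix result was not tested. In tissue RNA such as this, fewer cells of a type and less RNA per cell cannot be told apart. Of 34 matrix proteases and inhibitors and 26 integrins and laminins none passed, *Mmp23*, a membrane metalloproteinase, being at -0.50 (adjusted p = 0.0614) and *Lama5*, a laminin chain of vessel walls, at 0.42 (adjusted p = 0.121).

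Among growth factors, 2 of 52 genes of the FGF, PDGF, VEGF, IGF and neuregulin group were called, both higher in RV, *Fgf7* and *Igfbp5*, the latter described above. Of them 10 had an unadjusted p below 0.05 on the RV side (6 without LV3 and 6 without RV1) and 6 on the LV side. *Fgf7*, a growth factor that mesenchymal cells send to epithelia, was at 4.86, 4.74, 4.04 and 4.38 in LV and 7.46, 7.16 and 7.19 in RV. The RV arrays were all above the LV arrays, by 2.76 ± 0.42 on average (adjusted p = 0.00163), with 3.26 within slide 2 and 2.39 within slide 3, and the call held without any 1 array. Only 1 of the 4 LV arrays was above background for *Fgf7*, and with any LV level under the floor of its array, the lowest signal marked as well above background there, raised to that floor, RV was higher by 2.61. *Fgf10*, a relative, stood out in RV2 alone and was at 4.77, 3.71, 4.15 and 3.62 in LV and 5.03, 8.42 and 5.20 in RV (-2.15, adjusted p = 0.131). *Met*, the hepatocyte growth factor receptor, differed by -0.88 (adjusted p = 0.0747) and *Erbb4*, the neuregulin receptor of myocytes, by -0.69 (adjusted p = 0.0691). *Igf2r*, which clears insulin-like growth factor, was at 0.51 (adjusted p = 0.0573). *Tgfb2*, a TGF-beta ligand, was the 1 called gene of 46 in the BMP and TGF-beta pathway, at 9.23, 8.91, 9.03 and 9.60 in LV and 8.28, 8.59 and 8.21 in RV (0.83 ± 0.15 higher in LV, adjusted p = 0.00739), lost without RV1 (adjusted p = 0.05005). Developmental pathways gave no call. None of 37 Wnt genes passed, and *Rspo1*, a Wnt agonist, was at -1.31 (adjusted p = 0.154) and high in RV2 alone (10.05 there, 6.73 to 7.47 elsewhere). None of 20 Notch genes passed, *Numb* being lowest in p at 0.53 (adjusted p = 0.443), though its other probe, above background on all 7 arrays, showed a difference of -0.70. None of 53 guidance genes passed, where *Epha3*, an ephrin receptor, was at 7.22, 7.02, 6.76 and 5.83 in LV and 9.21, 8.40 and 9.11 in RV (-2.20, adjusted p = 0.0573). Nor did any of 16 retinoic acid genes, where *Aldh1a2*, which makes retinoic acid, was at -0.74 (adjusted p = 0.192).

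Interferon response genes were the functional group with the lowest median. Of 28 members tested, 1 was called, higher in RV, 15 (53.6%) had an unadjusted p below 0.05 on the RV side and none on the LV side, and the median was -0.35. The count was 9 without LV1, 5 without RV2 and 9 without RV3, and the median ran from -0.43 to -0.28 over the fits that left out 1 array. *Mx1*, an antiviral GTPase, was at 9.72, 9.62, 9.86 and 10.43 in LV and 10.38, 11.12 and 10.95 in RV (-0.91, adjusted p = 0.0824). *Isg15*, a ubiquitin-like modifier, was at 10.16, 10.54, 10.98 and 11.31 and 11.17, 11.84 and 11.80 (-0.86, adjusted p = 0.17), as *Irf7*, a factor that amplifies the response, at 11.09, 11.06, 11.43 and 11.95 and 11.59, 12.50 and 12.39 (-0.78, adjusted p = 0.169). For these 3 genes LV4 lay above RV1, and RV2 and RV3 were the highest arrays. Class II antigen presentation genes had a median of -0.30 (-0.08 without RV2) and macrophage and lymphocyte markers medians of 0.03 and 0.20 (0.18 and 0.17 without RV2), none of them called.

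Elsewhere in the immune genes, 1 member of each of 2 lists was called. *C4b*, a complement component, was at 11.27, 10.79, 11.53 and 11.13 in LV and 12.84, 12.43 and 12.62 in RV, higher in RV by 1.45 ± 0.27 (adjusted p = 0.00865), and the call was lost without RV1 (adjusted p = 0.0611). Its near-identical copy *C4a* was at -1.15 (adjusted p = 0.12), and probes may not separate the copies. It was the 1 called gene of 31 in complement and coagulation. *Cxcr4*, a chemokine receptor, was the 1 called gene of 50 chemokines, cytokines and receptors, at 10.13, 9.53, 10.43 and 9.80 in LV and 9.02, 8.95 and 9.15 in RV, higher in LV by 0.93 ± 0.19 (adjusted p = 0.0227), a call kept only without LV2, LV4 or RV3 (otherwise adjusted p = 0.0566 to 0.101). *Cxcl9*, an interferon-induced chemokine, was at -0.79 (adjusted p = 0.0865). *Hpgds*, a prostaglandin D synthase named after its values were seen, was at 6.09, 6.22, 6.28 and 6.26 in LV and 7.60, 7.53 and 7.16 in RV, higher in RV by 1.22 ± 0.16 (adjusted p = 5.42e-04), and kept its call without any 1 array.

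The lists of general cell functions gave no call. None of the 74 cytosolic ribosomal protein genes tested passed, with a median of -0.01 and *Rpl12* lowest in p (-0.20, adjusted p = 0.161), and none of 37 proteasome and muscle ubiquitin ligase genes, with *Fbxo32*, atrogin, at -0.47 (adjusted p = 0.149). None passed among 30 immediate early and heat shock genes (*Hspa8* 0.21, adjusted p = 0.338), 14 clock genes (*Per3* -0.45, adjusted p = 0.265), 26 genes of the unfolded protein and amino acid response (*Sesn2* -0.86, adjusted p = 0.0514) and 38 cell cycle genes (*Ccnd2* 0.38, adjusted p = 0.0953). The 17 glucocorticoid response genes had a median of -0.21, which was -0.03 without RV2 and 0.04 without LV1, and *Klf9*, a direct target of that receptor, was at -0.28 (adjusted p = 0.303). In all, 26 of the 138 called genes (18.8%) were in a functional list, 16 higher in LV and 10 in RV, and 112 were in none, where 1221 of all genes tested (9.81%) were in such a list. The lists were chosen with earlier results of these data known, so the higher share among called genes is not independent of the data. When 1 array at a time was left out, the median took both signs for 17 of the 39 functional lists and 7 of the 20 marker lists, and it moved by over 1.5 times or changed sign for 32 and 16. Wall stress, antioxidant, interferon and mesothelial genes were among the lists whose medians moved less.

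Markers of the mesothelium, the cell layer on the outer surface of the heart, formed the marker list with the lowest median. Of 12 tested, 3 were called higher in RV, 9 (75%) had an unadjusted p below 0.05 on the RV side and 1 on the LV side, and the median was -0.93 (-0.89 without RV2). *Msln*, mesothelin, was at 10.26, 8.59, 10.45 and 7.67 in LV and 12.02, 11.15 and 12.03 in RV (2.49 ± 0.56 higher in RV, adjusted p = 0.0353), and *Upk1b*, a uroplakin of the mesothelial surface, at 8.60, 6.94, 9.02 and 6.88 and 10.35, 9.29 and 10.22 (2.09 ± 0.50, adjusted p = 0.0482). *Krt19*, a keratin of simple epithelia, was at 6.40, 3.64, 6.10 and 3.45 and 8.09, 7.39 and 7.75 (2.85 ± 0.65, adjusted p = 0.0395). For it 2 LV arrays were not above background, and with levels under the floor raised to it RV was higher by 2.20. The LV arrays fell apart for all these genes, LV1 and LV3 high and LV2 and LV4 low, while no LV array reached an RV array. Each call was kept only without LV1 or without LV3, with an adjusted p of 0.067 to 0.181 without any other array, and none of the 3 was called with slide as a block. LV1, LV3, RV1 and RV3 lay in the first row of arrays of their slides and LV2, LV4 and RV2 in the second. RV was higher for *Msln* by 1.67 within the first row and 3.02 within the second, and by 1.14 within slide 2 and 2.61 within slide 3. *Tbx18*, an epicardial transcription factor, differed by -0.60 (adjusted p = 0.124) and *Bnc1*, basonuclin, by -1.23 (adjusted p = 0.147). The exceptions were *Clu*, clusterin, which myocytes also express, with a difference of 0.36, and *Wt1*, an epicardial transcription factor, with 0.02. *Itln1*, *Krt7* and *Krt8* were measured and did not reach the filter. The LV samples were pieces of a mass and the RV samples free wall, and the part of the share of outer surface in these values was not tested.

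The remaining marker lists are given for what else the tissue may hold. Endothelial markers had a median of 0.31 over 15 genes, of which none was called and 5 had an unadjusted p below 0.05 on the LV side (3 without LV2, 3 without LV3 and 3 without RV1). *Eng*, endoglin, differed by 0.67 (adjusted p = 0.154), *Tie1* by 0.76 (adjusted p = 0.19) and *Aqp1*, a water channel of capillaries, by 0.65 (adjusted p = 0.102). Their summed level was 17.76 to 18.13 in LV and 17.41 to 17.66 in RV. The 8 erythroid genes had a median of 0.45, with *Hbb* at 6.82 to 7.71 in LV and 5.82 to 6.66 in RV (adjusted p = 0.326). The medians were -0.36 for 10 outflow and pulmonary artery genes, -0.27 for 12 Schwann cell genes and -0.24 for 10 adipocyte genes, each nearer 0 without RV2 (-0.23, -0.21 and -0.13). They were -0.09 for smooth muscle, 0.17 for pericyte, -0.10 for endocardial, -0.17 for lymphatic, 0.06 for neutrophil and mast cell, 0.09 for skeletal muscle, 0.11 for lung epithelium, 0.02 for atrial myocyte and 0.01 for autonomic neuron genes. Without RV2 the median was -0.30 for neutrophil and mast cell, -0.03 for lymphatic, 0.01 for endocardial, 0.07 for atrial myocyte and 0.03 for autonomic neuron genes. Called members of these were *Myl1* on the atrial list and *Ddc*, the decarboxylase of amine synthesis, on the neuronal list. *Ddc* was at 13.16, 12.76, 12.74 and 12.73 in LV and 12.20, 11.52 and 12.11 in RV (0.90 ± 0.18 higher in LV, adjusted p = 0.016), and the call was lost without RV2 (adjusted p = 0.116).

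**Figure D5:**
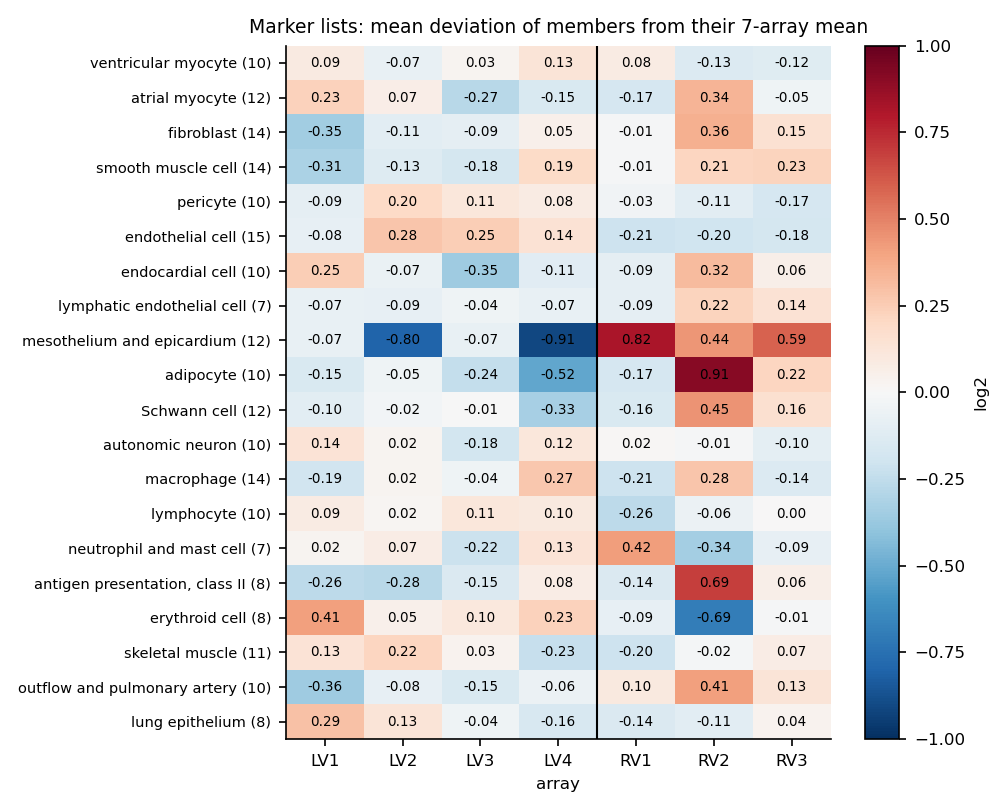
Each cell is the mean deviation of the tested members of a marker list (number in brackets) from their 7-array mean, on the log2 scale, with the 4 LV arrays left of the line and the 3 RV arrays right of it. The mesothelium row is high on all RV arrays and low on LV2 and LV4, and RV2 is highest for the adipocyte and class II rows.

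Several of the largest differences were in genes outside the groups above. *Tceal7*, of the family of transcription elongation factor A-like proteins, was at 8.49, 7.64, 7.95 and 8.88 in LV and 4.60, 4.54 and 5.18 in RV (3.47 ± 0.40 higher in LV, adjusted p = 7.06e-05). Of its RV arrays 1 was not above background, and with RV levels under the floor raised to it the difference was 3.44. *Bex1*, an adaptor protein of neurons and muscle, was at 12.14, 11.61, 11.97 and 12.54 and 9.87, 9.86 and 10.04 (2.14 ± 0.20, adjusted p = 2.84e-06). Both genes, together with *Tspan1*, a tetraspanin at 8.32, 8.25, 8.70 and 8.09 in LV and 6.55, 6.38 and 6.48 in RV (1.87 ± 0.23, adjusted p = 2.21e-04), were separate on all arrays and kept their calls without any 1 array. The same held for *LOC102553770*, a locus without an assigned symbol, at 9.42, 9.23, 9.23 and 9.73 and 7.31, 7.49 and 7.49 (1.97 ± 0.17, adjusted p = 1.86e-06). The following 4 were named after their values were seen, because their calls held without any 1 array. *Bok*, of the BCL2 family, was at 13.23, 12.99, 13.22 and 13.37 in LV and 12.16, 11.94 and 11.89 in RV (1.2 ± 0.09 higher in LV, adjusted p = 6.02e-08). *Akip1*, which binds protein kinase A, was at 12.43 to 13.001 and 11.43 to 11.65 (1.04 ± 0.12, adjusted p = 5.86e-05), and *Epn3*, an epsin of endocytosis, at 10.05 to 10.80 and 9.29 to 9.49 (1.22 ± 0.17, adjusted p = 5.49e-04), with LV2 the lowest LV array. *Gpr155*, a membrane protein of lysosomes, was at 11.14 to 11.50 and 10.30 to 10.68 (0.87 ± 0.12, adjusted p = 5.49e-04).

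On the RV side *Vsnl1*, visinin-like protein, a calcium sensor of neurons that is also found in heart, gave the smallest p. It was at 6.67, 6.24, 6.39 and 6.81 in LV1 to LV4 and 9.02, 8.84 and 9.001 in RV1 to RV3. RV was higher by 2.43 ± 0.16 (5.38-fold, adjusted p = 3.47e-08), 2.54 within slide 2 and 2.55 within slide 3, and the call held without any 1 array and in a fit of the 7 arrays alone (adjusted p = 0.00519). Other large differences were in genes in which RV2 was highest, several of them dim. *Mettl24*, a predicted methyltransferase, was at 5.54, 7.77 and 5.30 in RV and above background on no LV array. Its RV mean was at least 3.25-fold higher (adjusted p = 0.0122), a bound that RV2 raises. With no floor applied, LV minus RV was -2.47, and -1.69 without RV2, where the call was lost (adjusted p = 0.0718). *Tcerg1l*, a transcription elongation regulator, was at 5.03, 6.82 and 4.74 in RV and likewise above background on no LV array. Its RV mean was at least 2.34-fold higher (adjusted p = 0.0443), which RV2 also raises. With no floor applied, LV minus RV was -1.88, and -1.24 without RV2. The call was kept only without LV4 or RV3 (otherwise adjusted p = 0.0756 to 0.229). A bound of this kind sets the RV mean against the mean over LV arrays of the higher of the array's floor and the gene's own level. *Cdh17*, a cadherin, and *Gng2*, a G protein subunit, were above background on 1 LV array each, and with LV levels under the floor raised to it RV was higher by 1.07 and 0.99. The call of *Cdh17* (adjusted p = 0.0365) was kept only without LV1 or LV4 (otherwise adjusted p = 0.0722 to 0.151), and that of *Gng2* (adjusted p = 0.0455) was kept only without LV3 or RV3 (otherwise adjusted p = 0.0611 to 0.237) and lost with slide as a block. *Myoc*, myocilin, a secreted glycoprotein, was at 9.63, 9.59, 8.89 and 9.86 in LV and 10.56, 12.03 and 11.21 in RV (1.77 ± 0.38, adjusted p = 0.0275), a call kept only without LV1, LV4 or RV1 (otherwise adjusted p = 0.0588 to 0.15). *Plcxd3*, a phospholipase-like protein, was at 6.05, 6.02, 5.36 and 5.41 and 6.63, 7.92 and 7.17 (1.53 ± 0.35, adjusted p = 0.0388), a call kept only without LV1 or RV1 (otherwise adjusted p = 0.0588 to 0.19) and lost with slide as a block. Smaller differences with little spread, in genes named after their values were seen, kept their calls without any 1 array. *Lsamp*, an adhesion protein of neurons, was at 11.35, 11.12, 11.17 and 11.12 in LV and 12.30, 12.23 and 11.997 in RV (0.99 ± 0.11, adjusted p = 4.23e-05). *Slc24a3*, a potassium-dependent sodium-calcium exchanger, was at 8.29 to 8.90 and 9.86 to 10.20 (1.35 ± 0.19, adjusted p = 5.93e-04), *Epb41l3*, a membrane skeleton protein, at 7.82 to 8.30 and 8.87 to 9.30 (1.1 ± 0.17, adjusted p = 0.0019), and *Cirbp*, the cold-inducible RNA-binding protein, at 12.13 to 12.45 and 12.91 to 12.93 (0.64 ± 0.09, adjusted p = 7.10e-04).

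The levels of the leading genes in the other regions are given as a description (mean ± SD, n = 4 each). *Nppa* was at 18.59 ± 0.21 in LA and 18.31 ± 0.22 in SA, and at 18.13 ± 0.76 in PV and 8.71 ± 1.99 in PA. *Nppb* was at 15.06 ± 1.29 in LA, 14.86 ± 0.32 in SA, 15.23 ± 1.04 in PV but 5.75 ± 1.57 in PA. *Penk* had means of 7.29 ± 0.49 in LA, 6.56 ± 0.19 in SA, 6.97 ± 0.41 in PV and, highest of these, 9.10 ± 0.46 in PA. Every LV array of *Penk* was above the means of the other regions, and the RV arrays lay near the mean of PA. *Irx2* was at 4.70 ± 0.76 in LA and 4.59 ± 0.71 in SA, and *Ankrd23* at 5.79 ± 0.52 and 6.35 ± 0.36. Of the genes higher in RV, *Vsnl1* was at 11.72 ± 0.08 in LA, 12.48 ± 0.20 in SA, 11.997 ± 0.26 in PV and 7.77 ± 0.29 in PA, and *Kcnd2* at 9.52 ± 0.51 (LA), 9.99 ± 0.09 (SA), 8.94 ± 0.38 (PV) and 6.47 ± 0.20 (PA). The RV arrays of *Vsnl1* lay between those of LV and the means of LA, SA and PV, while the RV arrays of *Kcnd2* were above the means of all other regions. *Fgf7* was at 4.46 ± 0.59 in LA, 5.21 ± 1.1 in SA, 5.12 ± 0.14 in PV and 4.38 ± 0.40 in PA, and *Msln* at 14.03 ± 0.17, 12.38 ± 0.40, 12.23 ± 0.70 and 11.93 ± 0.88.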

How the data were processed

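Single-color Agilent SurePrint G3 arrays measured Cy3-labeled cRNA of 4 LV and 3 RV samples and of 16 samples of other regions. Per the file headers, Feature Extraction (11.0.1.1) subtracted background and detrended the signal intensity of each spot. The authors then scaled each array to a common 90th percentile, and these deposited intensities, on a linear scale, were used as they are. On each array 99.57% to 99.82% of probes lay within 2% of the scanner signal times 1 factor.

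Of 45440 probes with a value on all arrays, 21047 were named through RefSeq accessions, which gave 16544 genes, 3638 with several probes. For each gene the array's brightest probe was used, 1 was added and the log2 taken. Genes marked well above background on all arrays of LV or of RV were tested with limma 3.58.1 (R 4.3.3, data.table version 1.17.8) in a fit of 23 arrays with 1 coefficient per region, with Benjamini-Hochberg adjustment and a threshold of 0.05. Tested on simulated data of 12445 genes, the procedure recovered 85% of 100 changes of 1 (log2) and 93% of 100 changes of 2, with 11 false calls. The simulated noise was independent between arrays, with 1 spread per gene in all regions and no effect of slide, row or rat. These rates therefore may not hold for the real arrays. The number of arrays limits the precision. Tables and plots were made with Python 3.11.15, pandas 2.3.3 and matplotlib 3.10.9.

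The named genes are the 12 largest called differences in each direction without overlap, of each of 39 functional lists up to 3 called members or else the member with the lowest p, and a set of known chamber genes (69 in all, some items that this rule selects being not reported here). A further 70, among them list members given as examples, were named after their values were seen. The comparison, the functional lists and the 20 marker lists were chosen with earlier results of these data known. The alternatives were other scalings, background corrections, filters, probes, pseudocounts, arrays in the fit, blocks and a trend with a robust prior, and each array left out; slide and row together as blocks were added after the data were seen.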

Additional observations from a re-analysis of the deposited data

Results flagged for a closer look

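In each of 139 named genes the lowest and highest of the 4 LV arrays were compared with the others by Dixon's ratio, the gap to the nearest array over the whole range. It exceeded the 95% critical value for 8 genes, and chance exceeds it in about 1 of 20 groups. LV1 was above the other LV arrays for *Gja3* (8.23 against 7.97 to 8.002, ratio 0.879), *Ddc* (13.16 against 12.73 to 12.76, ratio 0.934) and *Tnni3* (18.76 against 18.54 to 18.57, ratio 0.861). It was below them for *Sorbs2* (12.41 against 12.67 to 12.71, ratio 0.862) and *Aqp1* (16.74 against 17.24 to 17.27, ratio 0.941). LV2 was below the others for *Epn3* (10.05 against 10.79 to 10.80, ratio 0.982) and above them for *Erbb4* (6.06 against 5.79 to 5.82, ratio 0.895). LV4 was below the others for *Ctnnb1* (9.69 against 9.98 to 10.04, ratio 0.840). The 3 RV arrays are too few for this comparison.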

How the results depend on the processing

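None of the 138 called genes changed sign in any of the 24 alternatives, while the number of calls depended on the setting. With 16544 genes and no filter 83 were called (47 higher in LV, 36 in RV), and with a filter at 4 on the log2 scale on at least 1 array 84 (48 and 36). A fit of the 7 ventricular arrays alone called 18 (12 and 6), and one of the 11 arrays of LA, LV and RV 76 (49 and 27). Leaving out 1 array gave 49 (RV1) to 116 (LV4) calls, 27 to 60 higher in LV and 22 to 56 higher in RV. Other scalings, background correction, probes, pseudocount, prior, slide or row as a block and both blocks together gave 114 to 170 calls; with normexp 86 of 137 were shared.

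Replicate numbers are shared by LV and RV. The deviations of same-numbered arrays from the means of their ventricles had r = -0.01, -0.04 and 0.03 over 12445 genes. Over all pairs of an LV and an RV array r ran from -0.34 to 0.29. These correlations cannot show whether same-numbered arrays came from the same rat. With the replicate block on the 7 arrays limma called 0 genes (0 in LV and 0 in RV; 1447 at an unadjusted p below 0.05), and 0 with RV replicate 3 numbered 4 (1045).

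Of 51 named called genes, those called in every setting other than these blocks were *Penk*, *Vsnl1*, *Bok*, *LOC102553770*, *Bex1*, *Tspan1*, *Hpgds*, *Kcnd2* and *Nppa*. *Fgf7*, *Tceal7* and *Lsamp* kept their calls without any 1 array and in 14 of the 15 remaining settings. *Fgf7* and *Tceal7* were not tested under the filter that asks for all 7 arrays well above background. Slide as a block ended 8 calls (*Nppb*, *Krt19*, *Msln*, *Upk1b*, *Gng2*, *Plcxd3*, *Phkg1*, *Tgfbi*), normexp 10, no filter 11 and the fit of 7 arrays 37. Signs reversed for uncalled genes near 0. *Hand2* was at 0.016 with the 75th percentile, 0.014 with quantile normalization, 0.095 with normexp, 0.00024 with a pseudocount of 16 and 0.17 with RV replicate 3 numbered 4; *Myh7* was at -0.013 with quantile normalization and *Tbx5* at 0.067 with normexp. With 1 array left out, *Hand1* ran from -0.26 to 0.41, *Hand2* from -0.17 to 0.17, *Tbx20* from -0.065 to 0.49, *Myh7* from -0.022 to 0.23, *Atp2a2* from -0.085 to 0.043 and *Gja1* from -0.21 to 0.024. The cause was not tested. Genes dim on some arrays are limited by signal over background, and 3 RV arrays limit all calls.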
